A study of Mus musculus with 4 samples.

Results

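The genes *H19*, *Igf2*, *Igf2r*, *Mest*, *Plagl1*, *Peg3*, *Grb10*, *Ndn*, *Gnas* and *Zdbf2* are imprinted genes that lie outside the *Dlk1*-*Meg3* region and act on growth or on growth signalling. They were taken by name, as 10 of the 27998 genes counted, and were followed through myogenic states and non-myogenic cell types of the series. Satellite cells, the muscle stem cells (MuSCs) of skeletal muscle, were sorted from the lower hindlimbs of 4 mouse strains and captured for single-cell RNA-sequencing (scRNA-seq), with 1 library for each strain. The B10 library came from C57/Bl10ScsSn mice at 15 weeks of age and the *mdx* library from C57BL/10ScSn-Dmdmdx mice at 11 weeks. The DBA library came from DBA/2 mice at 13 weeks and the D2-*mdx* library from D2.B10-Dmdmdx mice at 14 weeks. Both dystrophic strains carry the *mdx* point mutation of *Dmd*, the dystrophin gene, in every cell, and both controls are wildtype for it. Each library pooled cells of 2 mice that were positive for α7-integrin and VCAM1 and negative for Cd11b, Sca1, Cd45 and Cd31. Cells of 1 library share their mice, sort and capture, so no value has a replicate and no difference between strains was tested. Strain, disease, age and capture cannot be told apart in these libraries. Intervals are 95% intervals that cover counting error only.

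Imprinted genes are transcribed mainly or only from the copy inherited from 1 parent, and many of them set the growth of the embryo and the placenta. *Igf2*, *Mest*, *Plagl1*, *Peg3*, *Ndn* and *Zdbf2* are known as genes of the paternal copy, *H19*, *Igf2r* and, outside neurons, *Grb10* as genes of the maternal copy, and *Gnas* as a locus with transcripts of either kind. In skeletal muscle *H19* and *Igf2* are known for high levels in fetal and newborn tissue, a fall after birth and a return during regeneration. The counts do not separate the parental copies, so they give the summed level of both.

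Levels are given in CPM, the UMIs of a gene scaled to the same total of summed UMIs in every group of cells, where a UMI stands for 1 captured RNA molecule. Wherever 4 values stand in a row without names, they follow the order B10, *mdx*, DBA, D2-*mdx*, and where 2 disease ratios do, *mdx* over B10 comes first. The 4 libraries held 43542853 to 75482888 UMIs in 3539 to 9931 barcodes, and 3279 to 6313 cells per library passed the filters, of which 2699 to 4821 were myogenic. At most 16 barcodes, or 0.236% of the smaller library, were shared by a pair of libraries. Cells were clustered anew on variable genes and the clusters were named by marker genes, both without the 10 imprinted genes. The names below end in "-like" because the classes were rebuilt in this way. In myogenic cells *Dmd* was at 324, 120, 287 and 94.4 CPM, lower in both dystrophic libraries by log2 ratios of -1.44 and -1.61. The *mdx* change is a point mutation, so a count of *Dmd* UMIs does not read the genotype itself. Markers of other cell types were found in MuSC-like cells and were not equal between libraries. The 6 white blood cell markers summed to 1.26, 22.9, 5.56 and 97.9 CPM, against 16654 to 65571 CPM in white blood cells. The highest of these is from B10, where the class was 1 cell. Vascular smooth muscle markers summed to 184, 208, 228 and 318 CPM, against 29898 to 32677 CPM in their own class. The 7 fibroblast or tenocyte markers were not as low, at 579, 326, 796 and 606 CPM against 1226 to 9934 CPM in their own class. That class held only 7, 29, 8 and 50 cells, and its lowest value is from the 7 cells of B10.

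In the myogenic cells of *mdx*, *H19*, *Igf2*, *Plagl1* and *Mest* were each at least 2-fold above their B10 level. These 4 of 10 genes stand beside a background of 4.71%, the share as much higher among all 8478 genes that reached 10 CPM in one library or the other, and 0 of 10 were at least 2-fold lower, beside 5.17% of genes. In D2-*mdx*, *H19* and *Plagl1* were at least 2-fold above DBA (2 of 10, beside 5.83% of genes) and *Zdbf2* was at least 2-fold below it (1 of 10, beside 5.86%). Medians over the 10 genes were 0.17 and -0.21 on the log2 scale, where all genes tested had medians of -0.035 and -0.074. The 10 genes were chosen with earlier results of these data known. Their counts beside the share of all genes, here and below, are therefore descriptions and no test of imprinted genes as a group. A sum over all myogenic cells cannot tell more cells of a state from more RNA in each cell, so the states are taken apart further on.

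*H19* gives a long non-coding RNA and lies on chromosome 7 at chr7:142575529-142578143 on the minus strand (GRCm38, GENCODE M21). Its level was 27.5 CPM (25.8 to 29.1), 101 (97.8 to 104), 12.2 (11.0 to 13.5) and 46.1 (43.9 to 48.4). Both dystrophic libraries lay above both controls, with log2 ratios of 1.88 (1.78 to 1.98) and 1.92 (1.75 to 2.09).

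*Igf2* encodes insulin-like growth factor 2, a ligand of the IGF1 receptor and the insulin receptor, and lies next to *H19* on the same strand (chr7:142650766-142666816). Its level was 51.2 CPM (49.0 to 53.4), 192 (188 to 197), 48.9 (46.4 to 51.4) and 94.8 (91.6 to 98.1). The control libraries were close to each other, and the dystrophic ones were above them by a log2 ratio of 1.91 (1.84 to 1.98) in *mdx* and 0.96 (0.87 to 1.05) in D2-*mdx*. The second value is 1.94-fold and stands just under the 2-fold line. With library sizes set by TMM or by DESeq2 it passed that line, at log2 ratios of 1.01 and 1.04.

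Host transcripts of miRNAs are among the 4 genes that were high in *mdx*, and the mature sequences are shown because they are the RNA products of these loci that the libraries do not count. They are given 5′ to 3′ as in RefSeq, with the seed (bases 2 to 8) in capitals. miR-675 lies within an exon of *H19*, and miR-483 and miR-335 lie within the span of *Igf2* and of *Mest* outside annotated exons. No 2 of the 6 share a seed.
miR-675-5p: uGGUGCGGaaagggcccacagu
miR-675-3p: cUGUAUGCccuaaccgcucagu
miR-483-5p: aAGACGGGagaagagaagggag
miR-483-3p: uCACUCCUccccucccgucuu
miR-335-5p: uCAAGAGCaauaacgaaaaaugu
miR-335-3p: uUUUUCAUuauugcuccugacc

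*Plagl1* encodes a zinc finger transcription factor known to bind within the *H19*-*Igf2* region (chr10:13060504-13131694, plus strand). It was at 39.0 CPM (37.1 to 41.0), 177 (172 to 181), 17.7 (16.2 to 19.2) and 61.2 (58.7 to 63.9). The order of the 4 libraries was that of *H19*. Its log2 ratios were 2.18 (2.10 to 2.26) and 1.79 (1.66 to 1.93).

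*Mest*, also called *Peg1*, encodes a protein of the alpha/beta-hydrolase fold (chr6:30723547-30748465, plus strand). It was at 152 CPM in both controls (148 to 156 in B10, 147 to 156 in DBA), at 334 (328 to 339) in *mdx* and at 249 (244 to 254) in D2-*mdx*. The log2 ratios to the controls were 1.13 (1.09 to 1.18) and 0.71 (0.66 to 0.77).

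*Igf2r* and *Grb10*, the other genes of the list that belong to the insulin-like growth factor axis, moved less. *Igf2r* encodes the receptor that takes IGF2 into the cell for breakdown (chr17:12682406-12769664, minus strand). It was at 163, 142, 179 and 113 CPM, with log2 ratios of -0.21 (-0.26 to -0.15) and -0.65 (-0.71 to -0.60). Its span overlaps that of *Airn* on the other strand, and whether counting used strand is not given in the sources used here, so reads of the pair may be mixed. *Grb10* encodes an adaptor that damps signalling from the insulin and IGF1 receptors (chr11:11930508-12038683, minus strand). It was at 199 CPM (194 to 203), 257 (252 to 262), 235 (230 to 241) and 168 (164 to 173). *Grb10* was thus higher in *mdx* than in its control by a log2 ratio of 0.37 (0.33 to 0.41) and lower in D2-*mdx* than in its control by a ratio of -0.48 (-0.53 to -0.43), and neither passed 2-fold.

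*Peg3* encodes a zinc finger protein (chr7:6703892-6730431, minus strand) and was at 1304, 1283, 841 and 785 CPM. The log2 ratios to the controls were -0.024 and -0.099, and the first was 0.03 under TMM and DESeq2 library sizes, so no direction is given. *Gnas* encodes the stimulatory G protein alpha subunit and related transcripts (chr2:174284320-174346744, plus strand). It was at 6901, 5477, 6370 and 4467 CPM, with ratios of -0.33 and -0.51, and its span overlaps the antisense gene *Nespas*. *Ndn* encodes necdin, a MAGE family protein (chr7:62346569-62350262, plus strand), and was at 26.0, 15.6, 35.0 and 28.0 CPM. Both dystrophic libraries had less of it than their controls, by log2 ratios of -0.74 (-0.89 to -0.60) and -0.32 (-0.45 to -0.19). *Zdbf2* encodes a zinc finger protein named for the DBF type (chr1:63273265-63314576, plus strand). Its level was 41.3 CPM (39.3 to 43.3), 38.3 (36.4 to 40.3), 75.0 (71.9 to 78.1) and 29.8 (28.0 to 31.6). The ratios were -0.11 (-0.21 to -0.01) and -1.33 (-1.44 to -1.23), and DBA had the highest level of the 4.

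MuSC-like cells were then taken alone, since they made up 4137 of 4418 myogenic cells in B10 and 2515 of 2699 in DBA but only 3208 of 4821 in *mdx* and 2883 of 4186 in D2-*mdx*. Within them *H19*, *Igf2* and *Plagl1* were still above the B10 level in *mdx* (3 of 10 at least 2-fold, beside 2.99% of 8351 genes; 0 lower, beside 3.33%). In D2-*mdx*, *H19* and *Plagl1* were at least 2-fold above DBA (beside 3.64% of genes) and *Zdbf2* was at least 2-fold below it (beside 3.59%). *Mest* was not among them, and stood at 145, 141, 139 and 135 CPM. Its ratios to the controls were -0.035 (-0.10 to 0.03) and -0.045 (-0.12 to 0.03). *Peg3*, at 1329, 1534, 862 and 971 CPM, was slightly higher in both dystrophic libraries within this class, by 0.21 (0.19 to 0.23) and 0.17 (0.14 to 0.20).

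In MuSC-like cells *H19* was at 28.4, 68.1, 12.0 and 29.5 CPM, which put D2-*mdx* close to B10. The log2 ratios were 1.26 (1.14 to 1.38) and 1.30 (1.09 to 1.4997), both smaller than over all myogenic cells. *Igf2* stood at 52.2, 182, 51.0 and 94.6 CPM, with ratios of 1.80 (1.72 to 1.88) and 0.89 (0.79 to 0.99). *Plagl1* stood at 38.7, 130, 16.7 and 46.4 CPM, with ratios of 1.75 (1.66 to 1.85) and 1.47 (1.30 to 1.64). *Igf2* kept most of its difference in this single class, whereas that of *Mest* was gone. Giving both libraries of a pair the class shares of the control left log2 ratios of 0.019 and 0.042 for *Mest*, 1.33 and 1.40 for *H19*, 1.83 and 0.95 for *Igf2* and 1.76 and 1.46 for *Plagl1*, for *mdx* and D2-*mdx* in turn. Control shares give little weight to the DMD-enriched-like class described below, which was 0.928% of myogenic cells in B10 and 1.78% in DBA. Differences within that class, where *Mest* was at 715 CPM in *mdx* and 169 in B10, therefore hardly enter these ratios. Shares of the dystrophic libraries were not tried.

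**Figure D1:**
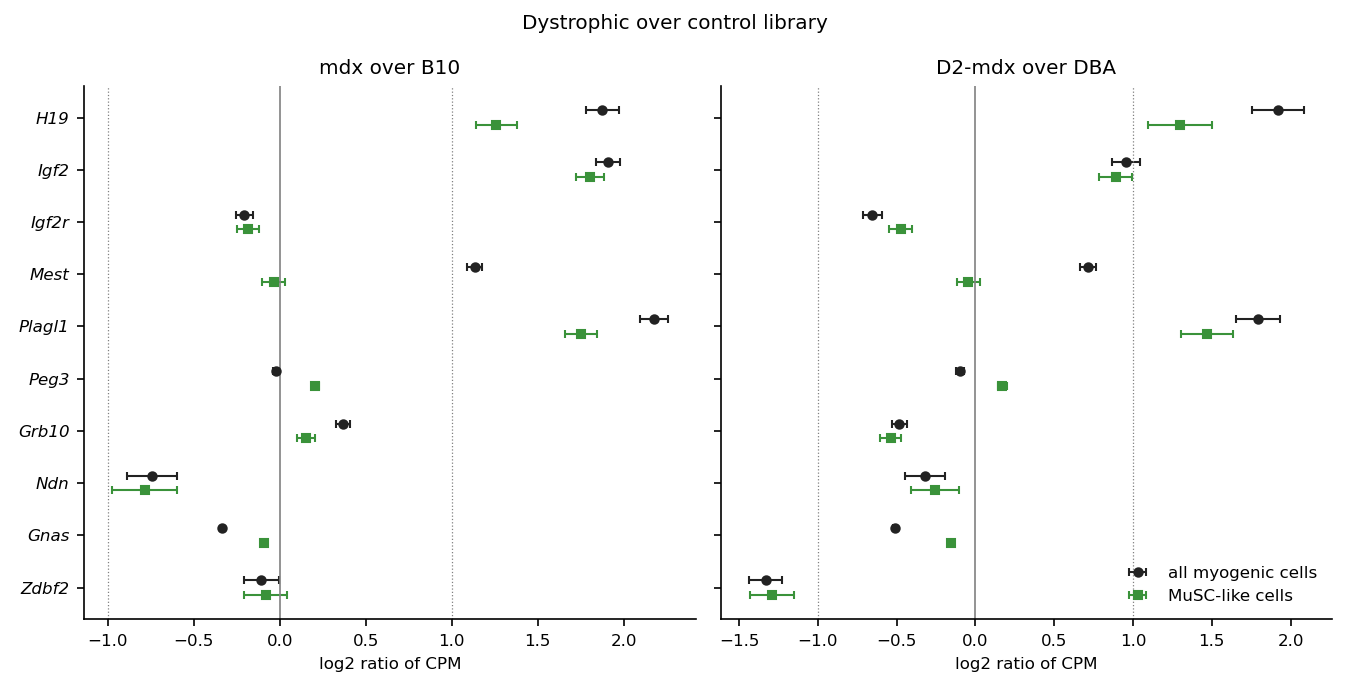
Log2 ratio of CPM for *mdx* over B10 and for D2-*mdx* over DBA, for each gene, over all myogenic cells and over MuSC-like cells only; bars are 95% counting intervals. *Mest* falls from 1.13 and 0.71 over all myogenic cells to -0.035 and -0.045 in MuSC-like cells, while *Igf2* in *mdx* stays at 1.80.

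Marker transcripts of other cell types and transcripts of cell handling also differed between these MuSC-like cells. Their part in the ratios above was not tested. Erythrocyte genes summed to 24.3, 906, 327 and 1348 CPM, the 6 endothelial markers to 6.12, 46.9, 5.52 and 60.2, and the 6 pericyte markers to 22.6, 40.3, 34.8 and 66.4. Fibroblast or tenocyte markers went the other way, at 579, 326, 796 and 606 CPM, lower in both dystrophic libraries than in their controls. A sum of markers can rest on few genes. In DMD-enriched-like cells of B10, 2 of the 7 fibroblast or tenocyte markers gave all 299 UMIs. There 1 of the 6 vascular smooth muscle markers gave all 184. Whether myogenic cells hold these transcripts themselves was not tested. Immediate-early and heat shock genes of the kind that cell dissociation induces summed to 32544, 39853, 27937 and 40387 CPM. *H19* was listed with 21 UMIs in the white blood cells of D2-*mdx* (11.0 CPM) and 32 in those of *mdx* (30.3 CPM), both below the MuSC-like level of the same library.

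The DMD-enriched-like class, marked by *Postn*, *Col1a1*, *Col1a2*, *Islr*, *Mgp* and *Gpc3*, held 899 cells in *mdx* and 566 in D2-*mdx*, but only 41 in B10 and 48 in DBA, or 18.6, 13.5, 0.928 and 1.78% of the myogenic cells. Against MuSC-like cells of the same library, *Mest*, *H19* and *Plagl1* were at least 2-fold higher in both dystrophic libraries. That is 3 of 10 in *mdx*, beside 3.27% of 8224 genes, and 3 of 10 in D2-*mdx*, beside 3.53% of 8215, and 0 of 10 were as much lower in either (beside 4.15% and 4.47%). The median log2 ratio over the 10 genes was 0.50 in *mdx* and 0.39 in D2-*mdx*, where all genes tested had medians of 0.06 and 0.03.

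*Mest* stood at 715 CPM in the DMD-enriched-like cells of *mdx* and 618 in those of D2-*mdx*, a log2 ratio over MuSC-like cells of 2.34 (2.28 to 2.40) and 2.20 (2.12 to 2.27). *H19* stood at 203 and 103 CPM, with ratios of 1.58 (1.48 to 1.68) and 1.81 (1.64 to 1.97). *Plagl1* stood at 328 and 153 CPM, with ratios of 1.34 (1.26 to 1.41) and 1.72 (1.59 to 1.85). The study named *Mest* as a marker of this class from these cells, so its level there is a description. *Igf2* was higher by less, at 277 and 161 CPM with ratios of 0.60 (0.53 to 0.67) and 0.77 (0.65 to 0.88), and *Grb10* by a like amount (0.71 and 0.65). *Peg3* (-0.15 and 0.067), *Gnas* (-0.21 and -0.44), *Igf2r* (0.20 and 0.13), *Ndn* (0.40 and 0.10) and *Zdbf2* (-0.19 and 0.0021) differed by less than 0.5.

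The few cells of this class in the control libraries did not carry the same levels. *Mest* was at 169 CPM in the 41 cells of B10 and 238 in the 48 of DBA, with log2 ratios over MuSC-like cells of 0.22 (-0.13 to 0.55) and 0.78 (0.54 to 1.01). *H19* rested there on 10 UMIs in 3 cells of B10 and 8 UMIs in 5 cells of DBA, so its ratios of -0.30 (-1.36 to 0.59) and -0.01 (-1.23 to 0.99) are wide. *Plagl1* was at 57.7 and 38.7 CPM, with ratios of 0.58 (-0.05 to 1.15) and 1.21 (0.58 to 1.78). Within the class, *mdx* was above B10 by log2 ratios of 2.08 for *Mest*, 3.14 for *H19*, 2.51 for *Plagl1* and 2.66 for *Igf2*, and D2-*mdx* was above DBA by 1.37, 3.11, 1.98 and 1.71. For *H19* that is 8.80-fold (interval of the log2 ratio 2.26 to 4.199) and 8.64-fold (2.13 to 4.33). The control cells were placed in the class by clustering of the integrated libraries, at median depths of 8930 UMIs in B10 and 13610 in DBA. Whether they are in the same state as the dystrophic cells of the class was not tested, so these ratios may compare unlike cells.

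**Figure D2:**
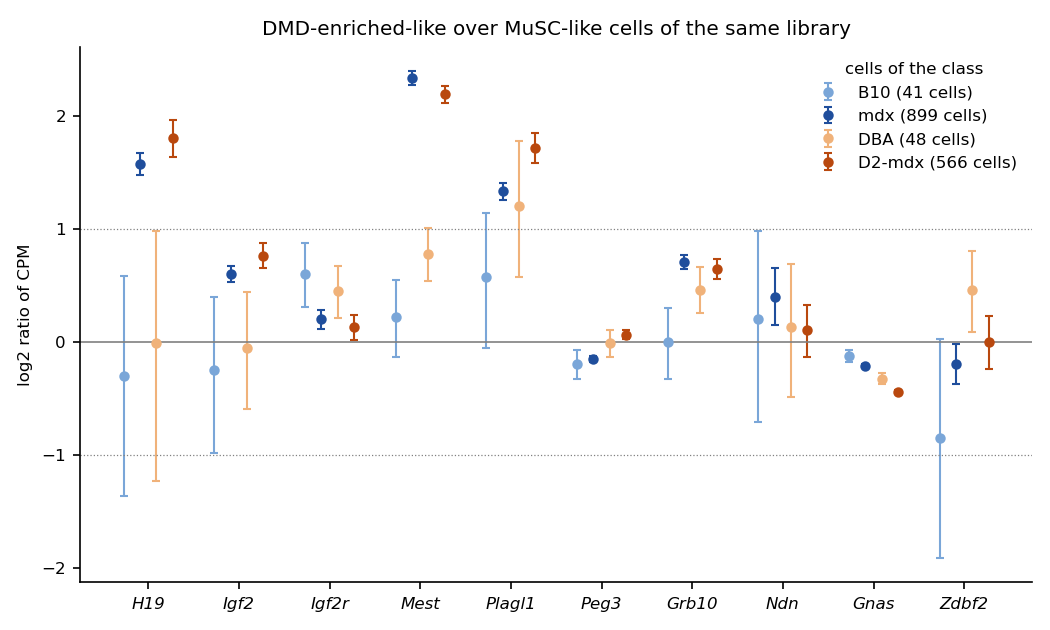
Log2 ratio of CPM in DMD-enriched-like over MuSC-like cells of the same library, for each gene and library; bars are 95% counting intervals and the key gives the cells of the class. *Mest*, *H19* and *Plagl1* stand above 1 in *mdx* and D2-*mdx*, and the intervals of the control libraries are wide because their classes hold 41 and 48 cells.

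The class held 14.2% of the cells of the *mdx* library but 59.8% of its *Mest* UMIs, 56.4% of its *H19* UMIs, 52.3% of its *Plagl1* UMIs and 38.5% of its *Igf2* UMIs. In D2-*mdx* it held 9.83% of the cells and 47.0, 40.4, 47.3 and 28.0% of the UMIs of these genes. Its cells were also deeper, with a median of 12116 UMIs in *mdx* and 11741.5 in D2-*mdx* against 5646.5 and 5591 in MuSC-like cells.

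Shares of cells with a UMI were therefore taken after thinning every cell to 3000 UMIs, which left out 37 MuSC-like cells of B10. In DMD-enriched-like cells of *mdx*, 67.9% (64.7 to 70.9) had a *Mest* UMI, 52.9% (49.6 to 56.3) a *Plagl1* UMI, 43.0% (39.8 to 46.4) an *Igf2* UMI and 31.8% (28.8 to 35.0) an *H19* UMI (Clopper-Pearson intervals). In D2-*mdx* the shares were 66.4, 31.1, 27.2 and 17.7%. White blood cells, which should hold little of these RNAs, gave 5.50% for *Mest*, 6.42% for *Plagl1*, 1.83% for *Igf2* and 2.75% for *H19* in *mdx*, at a median of 8215 UMIs before thinning. The shares in the DMD-enriched-like class of *mdx* were all above these. Before thinning, 5 of the 109 white blood cells of *mdx* held 81.25% of their 32 *H19* UMIs and 78.0% of their 50 *Mest* UMIs. The white blood cell shares thus do not give an even background level, and the part of background in the class was not tested.

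In MuSC-like cells the share with an *H19* UMI was 5.80% (5.11 to 6.56), 11.4% (10.4 to 12.6), 2.90% (2.28 to 3.64) and 6.28% (5.42 to 7.23). In DBA, *H19* had 1 UMI in 24 white blood cells and 3 UMIs in 483 pericyte-like cells, against 328 UMIs in 2515 MuSC-like cells. Part of the low share in DBA may be background, which was not tested. *Igf2* was found in 14.6, 33.0, 13.0 and 22.2% of these cells, *Plagl1* in 10.0, 26.96, 3.90 and 11.5%, and *Mest* in 26.4, 22.1, 26.2 and 25.5%. More cells with a UMI went with the higher CPM for *H19*, *Igf2* and *Plagl1*. Before thinning, the *H19* shares were 12.6, 17.7, 8.67 and 11.2%, at median depths of 8307, 5646.5, 10164 and 5591 UMIs.

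Within the DMD-enriched-like class, cells with an *H19* UMI more often had an *Igf2* UMI as well. In *mdx*, 62.2% of the 286 cells with *H19* had *Igf2*, against 34.1% of the 613 without. In D2-*mdx* it was 52.0% of 100 against 21.9% of 466. *Plagl1* followed *H19* in the same way, at 65.0 against 47.3% in *mdx* and 56.0 against 25.8% in D2-*mdx*. *Mest* did so by less, at 72.4 against 65.7% and 75.0 against 64.6%. *Igf2* was tied to *Gnas* in this class about as much as to *H19*, with Spearman correlations of 0.32 and 0.30 against 0.29 and 0.28. In MuSC-like cells of *mdx* 46.6% of cells with *H19* had *Igf2*, against 31.3% without. It was 22.3 against 14.1% in B10, 19.2 against 12.9% in DBA and 29.3 against 21.7% in D2-*mdx*. *Plagl1* did not follow *H19* in MuSC-like cells of B10, at 8.40 against 10.1%, where 20 of 238 cells with *H19* had it. In DBA it was 4.11 against 3.89%, but that rests on 3 of 73 cells with *H19*, too few to tell. In MuSC-like cells of *mdx* it was 39.8 against 25.3%, and in those of D2-*mdx* 19.3 against 11.0%. Cells of 1 library share their mice, so the shares describe these libraries and are given with no test.

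*H19* UMIs were bunched in cells more than a single rate would give. After thinning, the variance of *H19* UMIs per cell was 1.63, 2.34, 1.27 and 1.72 times the mean in MuSC-like cells, where equal rates would give 1. It was 2.23 times in the DMD-enriched-like cells of *mdx* and 2.10 times in those of D2-*mdx*. The 5 cells with most *H19* held 5.83% of the UMIs of that class in *mdx* and 16.7% in D2-*mdx*, so no small set of cells carries the *mdx* value. In some other classes few cells did carry it. In differentiating myocyte-like cells of D2-*mdx*, 5 of 207 cells held 74.6% of the 122 *H19* UMIs. In those of *mdx*, 5 of 230 cells held 52.1% of 48. Bunching was not particular to *H19*. In DMD-enriched-like cells of *mdx* the variance over the mean was 2.87 for *Mest*, 2.14 for *Igf2* and 5.10 for *Gnas*, but 1.05 for *Igf2r* and 0.99 for *Ndn*.

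Other states of the myogenic cells gave each gene its own pattern. In differentiating myocyte-like cells, marked by *Myog* and *Actc1*, *Mest* was higher than in MuSC-like cells of the same library by log2 ratios of 1.46, 1.38, 1.34 and 1.45. This difference was alike in control and dystrophic libraries, where the level in the class was 398, 367, 352 and 369 CPM. *Grb10* was higher there by 1.22 (1.02 to 1.41) and 1.19 (1.04 to 1.34) in the controls but by 0.50 (0.40 to 0.60) and 0.70 (0.57 to 0.82) in *mdx* and D2-*mdx*. *Zdbf2* was higher by 0.38, 0.89, 0.58 and 1.10, and *Peg3* was lower by ratios of -0.68, -1.38, -0.54 and -1.27. In *mdx* 1 of 10 genes was at least 2-fold higher in the class (beside 9.79% of genes) and 4 were lower (beside 14.5%), and in D2-*mdx* 2 were higher (beside 7.47%) and 2 lower (beside 12.8%).

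In cycling progenitor-like cells, marked by *Mki67* and *Top2a*, no gene of the list was at least 2-fold higher in *mdx* (beside 13.0% of genes) or in D2-*mdx* (beside 14.4%). Lower were 3 in *mdx* (beside 13.4%) and 5 in D2-*mdx* (beside 17.7%). *Igf2* was lower than in MuSC-like cells in all 4 libraries, by log2 ratios of -1.16, -1.40, -1.56 and -1.495. *Peg3* and *Gnas* were lower there by -1.79 and -1.30 in *mdx* and -2.09 and -1.75 in D2-*mdx*, against only -0.58 and -0.17 in B10 and -0.87 and -0.48 in DBA. The ratios of *Peg3* and *Gnas* were thus further below 0 in the dystrophic libraries than in the controls. The cycling class had 108, 408, 77 and 501 cells, but clustering of all cells together had put 22, 330, 58 and 443 in its cycling cluster. The make-up of the class may therefore differ between libraries, and its part in these ratios was not tested.

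Immunomyoblast-like cells, marked by interferon-induced genes such as *Ifit1* and *Isg15*, had *Igf2* at 380 CPM in *mdx* and 70.8 in B10, and *H19* at 154 and 30.7. The *mdx* class had 76 cells, and 5 of them held 52.0% of its *Igf2* UMIs and 71.0% of its *H19* UMIs, so these levels rest on few cells.

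The MuSC-like cells fell into several clusters, and 1 of them, led by *Dlk1*, *Hhip* and *Gli1* and holding 97, 40, 87 and 107 cells, differed from the largest in *Plagl1*, a contrast chosen after the values were seen. *Plagl1* was at 154, 255, 54.5 and 104 CPM in this cluster, and at 34.9, 108, 15.2 and 39.6 CPM in the largest cluster, led by *Btg2*, *Fosb* and other immediate-early genes. The log2 ratio of the largest over the *Dlk1* cluster was -2.14, -1.25, -1.85 and -1.39, in the same direction in all 4. *Ndn* followed it, with ratios of -0.77, -2.01, -0.50 and -1.08. The second largest cluster had *Neu1*, *Ryr3* and *Frem1* among its leading genes. Also among them were the erythrocyte gene *Hbb-bs*, and *Mirg* and *Slc22a3*, both lower in the dystrophic libraries as given below. Between the largest cluster and the second one, *Mest* differed by -0.06 and -0.02 in the controls but by -0.86 and -0.63 in *mdx* and D2-*mdx*. The flat *Mest* level of dystrophic MuSC-like cells thus joins 117 CPM in the largest cluster of *mdx* with 212 in the second, where B10 had 141 and 147.

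**Figure D3:**
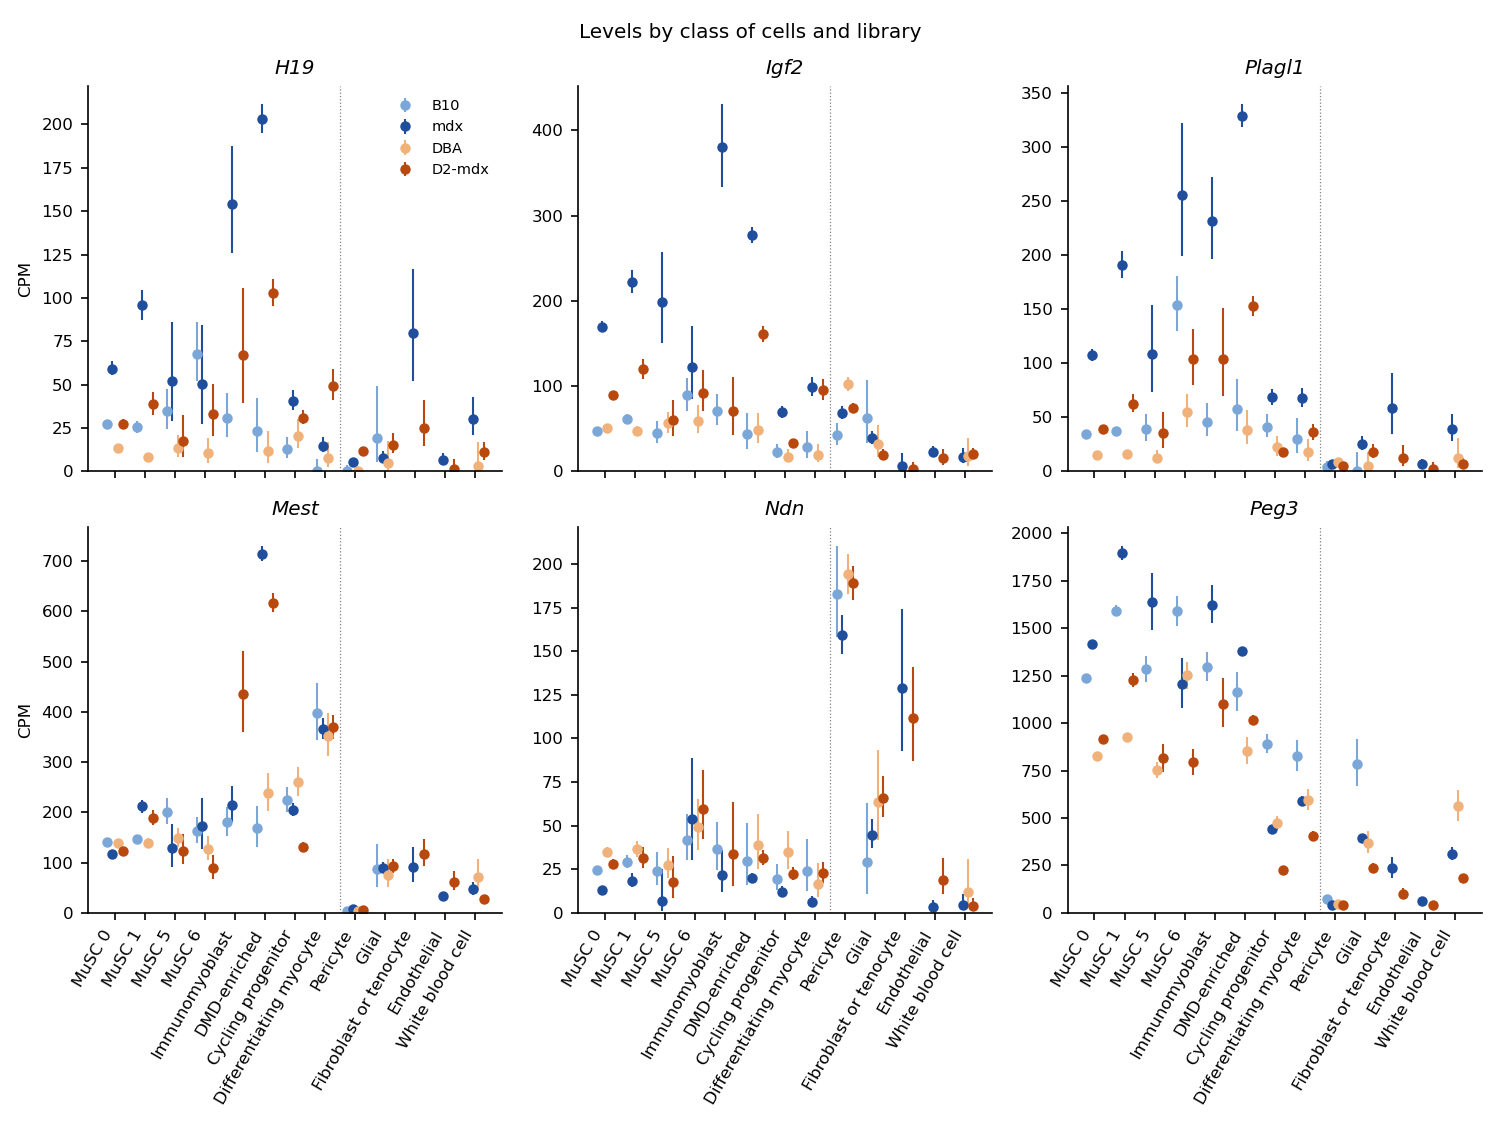
Level in CPM, on linear axes from 0, of selected genes by class of cells and library. Classes with at least 20 cells in a library are shown, without the vascular smooth muscle and Schwann classes. Bars are 95% Poisson intervals and the dotted line parts myogenic from non-myogenic classes. *Mest*, *H19* and *Plagl1* peak in the DMD-enriched-like class of *mdx* and D2-*mdx*, and *Ndn* peaks in pericyte-like cells of all 4 libraries.

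*Ndn* went against the rest of the list in pericyte-like cells, marked by *Rgs5*, *Kcnj8* and *Pdgfrb*. It was at 183, 159, 194 and 189 CPM there, against 26.1, 15.1, 35.3 and 29.6 in MuSC-like cells. The log2 ratios were 2.81 (2.58 to 3.03), 3.40 (3.20 to 3.59), 2.46 (2.33 to 2.58) and 2.68 (2.53 to 2.82). Pericyte-like cells were 9.63% of the cells of *mdx* and 17.0% of those of D2-*mdx*, yet held 48.2% and 54.1% of their *Ndn* UMIs. After thinning, 43.2, 37.5, 41.8 and 43.4% of them had an *Ndn* UMI, against 6.78, 4.15, 10.3 and 8.57% of MuSC-like cells. Fibroblast- or tenocyte-like cells had 129 CPM in *mdx* and 112 in D2-*mdx*, and white blood cells 4.74 and 4.21. Glial cells had 44.9 and 65.9 CPM of *Ndn* in these libraries, and endothelial cells 3.64 and 19.1. In vascular smooth muscle cells of *mdx*, *Ndn* was at 80.1 CPM and *Igf2* at 131.

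The other genes were at least 2-fold lower in pericyte-like than in MuSC-like cells, 9 of 10 in *mdx* (beside 10.8% of 9009 genes) and 8 of 10 in D2-*mdx* (beside 9.82% of 9025), where *Igf2* was the gene left over. Only *Ndn* was 2-fold higher in either library (1 of 10, beside 18.0% and 17.3%). *Mest* had 5, 42, 24 and 52 UMIs in all in these cells, with log2 ratios of -4.94, -4.08, -5.03 and -4.30, and *Peg3* had ratios of -4.17, -5.25, -4.27 and -4.56. *Zdbf2* had 1 to 9 UMIs. *Peg3*, at 862 to 1534 CPM in MuSC-like cells, did not exceed 73.8 CPM in pericyte-like cells.

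In pericyte-like cells *Igf2* was at 42.6, 68.8, 103 and 74.3 CPM, and in DBA that was 2.01-fold above the MuSC-like level. The order of the libraries was not that of the myogenic cells: DBA stood above B10 by a log2 ratio of 1.27 (0.83 to 1.74), and D2-*mdx* stood below DBA by -0.46 (-0.63 to -0.30). *H19* did not follow *Igf2* there. It had 0 UMIs in 97 cells of B10, 27 in 608 cells of *mdx*, 3 in 483 cells of DBA and 89 in 977 cells of D2-*mdx*, where 56 cells held them. D2-*mdx* was above DBA by a log2 ratio of 4.46 (2.86 to 6.76), a wide interval that rests on 3 UMIs in DBA. In D2-*mdx* the *H19* level of pericyte-like cells, 11.7 CPM, was near that of white blood cells, 11.0. Glial cells of that library had 15.5 CPM, fibroblast- or tenocyte-like cells 25.2 and endothelial cells 1.28. The part of background in the pericyte-like value was not tested. A count of 3 UMIs, the most that a count of 0 allows, leaves *H19* in B10 pericyte-like cells at a log2 ratio of -3.32 or below to its MuSC-like level.

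Dystrophic and control pericyte-like cells were then compared. Among 6 that reached 10 CPM, 0 were 2-fold higher in *mdx* (beside 2.04% of genes) and 0 lower (beside 5.83%), and of 7 in D2-*mdx*, 1 was higher, *H19* (beside 2.30%), and 0 lower (beside 3.68%). Between the strains, 1 of 6 was higher in DBA than in B10, *Igf2* (beside 2.70%), with 0 lower (beside 4.36%), and 1 of 7 was higher in D2-*mdx* than in *mdx*, *H19* (beside 2.35%), with 0 lower (beside 1.80%). *H19* reached 10 CPM in these cells only in D2-*mdx*, at 11.7 CPM, against 0 in B10, 5.37 in *mdx* and 0.533 in DBA. It was thus counted only in comparisons that hold D2-*mdx*, through the library where it is high, and not in *mdx* over B10. The counts with and without *H19* therefore do not compare the 2 strain backgrounds. *Igf2r* had ratios of -0.86 (-1.20 to -0.51) and -0.83 (-1.02 to -0.63), and *Ndn* of -0.20 (-0.43 to 0.036) and -0.039 (-0.15 to 0.076).

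The strain backgrounds differed as well. DBA had less *H19* and *Plagl1* than B10 over all myogenic cells, by log2 ratios of -1.17 (-1.35 to -0.9996) and -1.14 (-1.29 to -1.0007), so 2 of 10 genes were at least 2-fold lower (beside 1.79% of 8343 genes) and 0 higher (beside 1.76%). *Igf2* and *Mest* had ratios of -0.066 (-0.16 to 0.03) and -0.0024 (-0.058 to 0.053), *Peg3* of -0.63, *Zdbf2* of 0.86 and *Ndn* of 0.42. Between the dystrophic strains, *H19*, *Igf2* and *Plagl1* were lower in D2-*mdx* than in *mdx*, by -1.13 (-1.21 to -1.05), -1.02 (-1.08 to -0.96) and -1.53 (-1.60 to -1.46). That is 3 of 10, beside 1.53% of 8178 genes, with 0 higher, beside 2.02%. Over the same myogenic cells *Ndn* was higher in D2-*mdx* than in *mdx*, by 0.85 (0.70 to 0.99). In MuSC-like cells alone 2 of 10 were lower in DBA than in B10 (beside 1.81%) and 0 higher (beside 1.85%), and 2 were lower in D2-*mdx* than in *mdx* (beside 1.73%) and 0 higher (beside 1.82%). The 4 comparisons share libraries in pairs, so their ratios are not separate measurements.

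The pattern of each gene was set beside that of every other gene over the 37 groups of library and class with at least 50 cells, using log2(CPM + 1). Groups of 1 library share its mice and depth, and genes that separate muscle from other cells all rank alike, so these Spearman correlations describe the groups and carry no test. *Peg3* ranked most like its neighbours on chromosome 7, *Usp29* (0.97) and *Zim1* (0.97), out of 10826 genes, and then *Zcchc5* (0.92). Over the 24 myogenic groups alone the correlations with *Usp29* and *Zim1* were 0.95 and 0.95, and over the 13 non-myogenic groups 0.66 and 0.74. *H19* ranked most like *Ano5* (0.85), *Plagl1* (0.84) and *Epb41l4aos* (0.82), and *Igf2*, its neighbour, had 0.53 with *H19* over all groups, 0.72 over the myogenic groups and -0.23 over the non-myogenic ones. *Igf2* and *Plagl1* had 0.80 over the myogenic groups.

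For the rest, the 3 most alike genes were *Gnao1*, *Stbd1* and *Calcoco1* for *Igf2* (highest 0.77), *Zhx2*, *Rps21* and *Hoxc9* for *Igf2r* (0.86), and *Cd82*, *Capn6* and *Iqsec3* for *Mest* (0.90). They were *Mybpc1*, *Spats2l* and *Tpt1* for *Plagl1* (0.89), *Zfos1*, *Rtn2* and *Arhgap28* for *Grb10* (0.91), and *P3h3*, *Lix1l* and *Mrgprf* for *Ndn* (0.87). *Gnas* had *Pde1c*, *Prox1* and *Cecr2* (0.95), and *Zdbf2* had *Stac3*, *Pnmal2* and *Gm13703* (0.94).

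**Figure D4:**
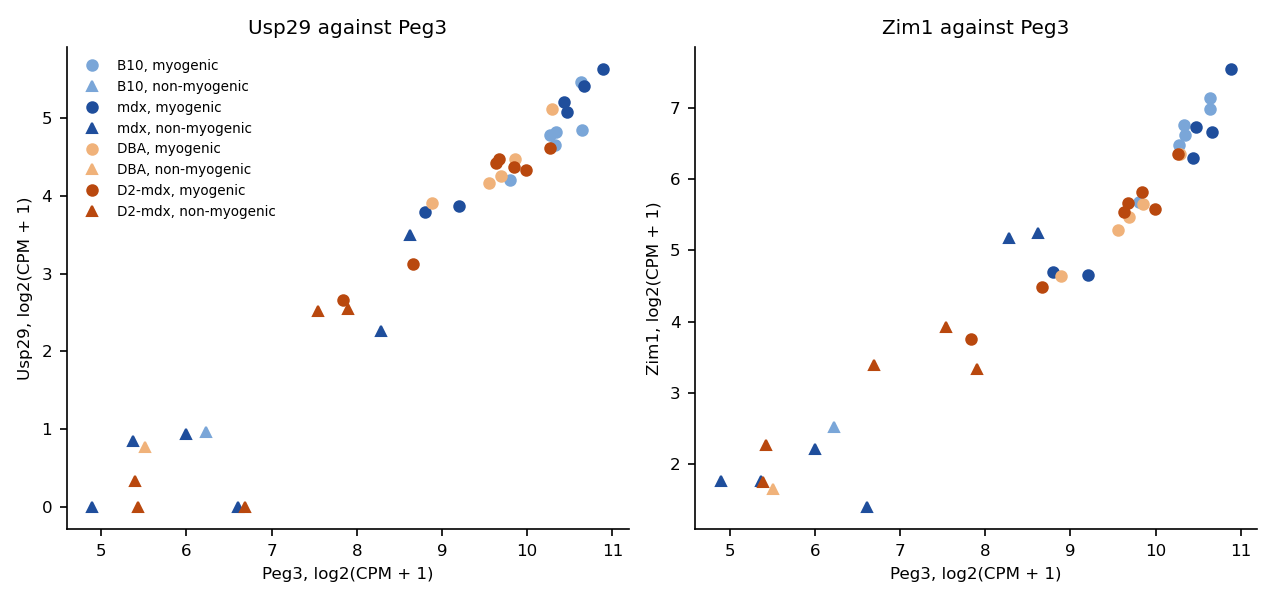
*Usp29* and *Zim1* against *Peg3*, as log2(CPM + 1) in each group of library and class with at least 50 cells; colours give the library and symbols part myogenic from non-myogenic groups. Groups with more *Peg3* have more of both neighbours, with Spearman correlations of 0.97 and 0.97 over the 37 groups.

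*Peg3* and *Usp29* are read in opposite directions from starts 164 bases apart, a shared promoter that is methylated on the maternal copy. The RefSeq window of the *Peg3* start is chr7:6730370-6730669 on the minus strand (GRCm38.p6), and it is shown because both starts lie in it. It is written 5′ to 3′ in the direction of *Peg3*, with the bases between the 2 starts in capitals. It holds 13 CpG dinucleotides, where the median over the 32851 windows of the table is 7. *Zim1* starts outside this window and ranked as close to *Peg3* as *Usp29* did, at 0.97 over all groups. The part of the shared promoter in these patterns was not tested.
Peg3 start: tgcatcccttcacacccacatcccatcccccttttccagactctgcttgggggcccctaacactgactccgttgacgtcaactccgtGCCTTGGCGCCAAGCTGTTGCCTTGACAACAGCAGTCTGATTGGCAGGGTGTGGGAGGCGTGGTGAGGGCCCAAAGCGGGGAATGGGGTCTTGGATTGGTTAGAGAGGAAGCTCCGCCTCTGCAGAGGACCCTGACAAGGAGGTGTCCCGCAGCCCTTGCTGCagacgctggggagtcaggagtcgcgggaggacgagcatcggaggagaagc

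*Usp29* was at 26.7, 31.8, 19.3 and 16.1 CPM in the myogenic cells, and *Zim1* at 96.4, 90.8, 44.7 and 44.7. Both were lower on the DBA background, as *Peg3* was. In pericyte-like cells *Usp29* was below 1 CPM in all 4 libraries and *Zim1* at 4.73, 2.39, 2.13 and 2.36.

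Other imprinted genes were read from a list of 49, of which 47 were counted and 27 reached 10 CPM in *mdx* or B10 and 26 in D2-*mdx* or DBA. In *mdx* 4 of the 27 were at least 2-fold higher and 1 lower, beside 4.71% and 5.17% of all genes tested, and in D2-*mdx* 3 of the 26 were higher and 1 lower, beside 5.83% and 5.86%, with median log2 ratios of 0.09 and -0.09 over the list. *Cdkn1c*, a cyclin-dependent kinase inhibitor, went from 31.1 CPM in B10 to 1039 in *mdx* and from 51.6 in DBA to 551 in D2-*mdx*, log2 ratios of 5.06 and 3.42. *Slc22a3*, an organic cation transporter near *Igf2r*, went from 17.8 to 0.149 and from 101 to 3.41 CPM, ratios of -6.91 and -4.89. *Pon3*, a paraoxonase, went from 5.87 to 13.4 and from 5.25 to 11.2 CPM. The 2 genes of the *Dlk1*-*Meg3* region with enough counts, *Meg3* and *Mirg*, were lower in both, with ratios of -2.43 and -3.74 in *mdx* and -3.00 and -4.22 in D2-*mdx*. These values are sums over all myogenic cells. In MuSC-like cells alone, 2 of 26 other imprinted genes were at least 2-fold higher in *mdx* and 1 lower, beside 2.99% and 3.33% of genes. In D2-*mdx* 1 of 25 was higher and 1 lower, beside 3.64% and 3.59%.

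Among the partners of *Igf2*, *Igf1* went the other way from it. *Igf1*, the related growth factor, was at 174, 60.2, 455 and 69.4 CPM, with log2 ratios of -1.54 (-1.60 to -1.47) and -2.71 (-2.77 to -2.65). *Igf1r*, the receptor through which both factors signal, was at 142, 109, 123 and 85.7 CPM (ratios of -0.38 and -0.52), and *Insr*, the insulin receptor, at 23.1, 19.01, 22.1 and 13.7 CPM (-0.28 and -0.69). *Igf2bp3*, an RNA-binding protein named for *Igf2*, was at 10.6, 13.4, 8.73 and 8.48 CPM. So 1 of the 4 partners tested in *mdx* and 1 of the 3 in D2-*mdx* was at least 2-fold lower, beside 5.17% and 5.86% of all genes tested, and 0 were higher, beside 4.71% and 5.83%.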

How the data were processed

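The deposited files hold UMI counts per gene and barcode, which the authors made with Cell Ranger 3.0.1 on mm10 (10X 3′ V3.1). Strand use in counting is not given in the sources used here. Filters kept barcodes of 1000 to 5000 genes in which mitochondrial UMIs did not pass 8%, Scrublet (scanpy 1.11.5) doublets were removed, and cells were integrated and clustered with Seurat 5.3.0 (CCA, 2000 features without the 10 genes, 30 dimensions, resolution 0.1, and 0.2 for myogenic cells). Counts were summed by library and class and divided by the summed UMIs (CPM), with exact Poisson intervals, and ratios have conditional binomial intervals. A gene with at least 10 CPM in either group was called when it differed at least 2-fold, and a count of 0 was bounded by 3 UMIs. Median depth of the kept cells was 6666 to 10434 UMIs. With 1 library per strain, no p-value was computed. Named were all 10 genes, *Dmd*, other imprinted genes past 2-fold in the same direction in both disease comparisons, partners of *Igf2* at 10 CPM or more, and the 3 most alike genes of each. Members and lists were chosen with earlier results of these data known. Alternatives were other cell filters, library sizes (TMM in edgeR 4.0.16, DESeq2 1.42.0), cell sets and level minimums. The ratio step was tested on simulated data.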

Additional observations from a re-analysis of the deposited data

Results flagged for a closer look

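*Grb10* was the gene whose disease ratio had opposite signs on the 2 strain backgrounds. In myogenic cells the ratio, on the log2 scale, was 0.37 for *mdx* over B10 and -0.48 for D2-*mdx* over DBA. With 1 library in each group, the difference between these ratios was not tested.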

How the results depend on the processing

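No paired analysis was possible because each strain has 1 library, so the groups share fewer than 2 replicates. For single genes, 353 values stayed within the counting interval of the reported one, 206 left it, and 1 past 2-fold changed sign, *Mest* in *mdx* over B10, which was -0.035 in MuSC-like cells only. Smaller ratios changed sign as well, among them the following. In MuSC-like cells *Mest* in D2-*mdx* over DBA became -0.045 and *Peg3* became 0.21 and 0.17 in the 2 disease comparisons, and over all cells of every class *Ndn* in *mdx* over B10 became 0.050. The setting called 500 genes below kept cells with at least 500 genes and set no upper limit, so cells above 5000 genes entered too. The median log2 ratio over the 10 genes for *mdx* over B10 became 0.063 with 500 genes, 0.23 with TMM and 0.23 with DESeq2 sizes. It became 0.059 in MuSC-like cells, 0.095 in all cells, 0.75 at a minimum of 50 CPM and 0.074 with class shares fixed. For D2-*mdx* over DBA it became -0.44 with 500 genes, -0.13 with DESeq2 sizes, -0.10 in MuSC-like cells, -0.29 at 50 CPM and -0.066 with class shares fixed. For D2-*mdx* over *mdx* it became -0.66 with 500 genes, -0.46 with a mean over cells, -0.44 in MuSC-like cells, -0.57 in all cells, -0.66 at 50 CPM and -0.39 with class shares fixed. The counts past 2-fold that moved by more than 1.5 times were 2 lower in D2-*mdx* over DBA with 500 genes, 1 higher there at 50 CPM, 0 lower in DBA over B10 at 50 CPM, and 1 lower in D2-*mdx* over *mdx* with class shares fixed. Others moved by 1 gene: 3 rather than 4 were higher in *mdx* over B10 by a mean over cells, in MuSC-like cells, in all cells and with class shares fixed, 3 rather than 2 were higher in D2-*mdx* over DBA with TMM and DESeq2 sizes, and 2 rather than 3 were lower in D2-*mdx* over *mdx* with 500 genes, DESeq2 sizes, a mean over cells, MuSC-like cells or all cells. The cause was not tested. Without integration no cluster was named DMD-enriched-like, so that class has no value there. *H19* rested on the fewest UMIs in DBA, where 367 were counted in myogenic cells.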
